A study of Mus musculus with 4 samples.

Results

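The 46 genes described here are imprinted genes of the mouse, grouped into 19 clusters and chosen by gene symbol in a deposited table of 49548 genes. All 46 symbols were found in that table. An imprinted gene is expressed mainly or only from the copy inherited from 1 parent, because a differentially methylated control region in its cluster carries a mark laid down in the egg or the sperm. Within a cluster, protein-coding genes read from the paternal copy often lie beside noncoding RNAs read from the maternal copy, or the reverse. Many of these genes act in fetal growth and in the brain, and several are known to change in neuroblastoma and other tumours of neural crest origin.

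The cells were Neuro2A, a mouse neuroblastoma line. One stable line was labelled Prox1-Tet-On and carried a doxycycline-inducible Prox1 transgene, and the other was labelled GFP-Tet-On and carried inducible GFP. Prox1 is a homeodomain transcription factor. Doxycycline at 1 µg/mL was used to switch on the transgene in either line, so the GFP cells served as a control that also received the drug and carried a transgene, and both lines were kept under the same 2 selection antibiotics (G418 and hygromycin B). Each group had 2 libraries, made with a kit that reads the 3′ ends of polyadenylated RNA. The transgenes sat in separate lines, so an effect of Prox1 and a difference between the lines cannot be told apart. No label tells whether the libraries of a group were separate cultures. The p-values below therefore measure only how far these libraries spread, and that spread may be technical. The reads were not split by parental allele, so every value is the sum of both copies, and the expressed allele given for each gene is background knowledge.

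The libraries summed to between 6798014 and 7683100 normalised counts and held 18396 to 19811 genes above 0. As a check of the labels, Prox1 itself read 1304 and 2505 normalised counts with the Prox1 transgene and 2 and 3 with GFP. Of 13 sympathetic neuroblastoma markers, 12 were detected and tested; 10 of the 12 passed the limma test described below, against 16% of all genes tested, 1 higher (background 7.57%) and 9 lower (background 8.41%). The GATA factor gene Gata2 rose, at 956, 778, 497 and 509 in Prox1 libraries 1 and 2 and GFP libraries 1 and 2. The largest falls were in Th, which encodes the enzyme that starts catecholamine synthesis (228, 155, 779 and 616), in the granin gene Chgb (1390, 1415, 4795 and 4498) and in the GATA factor gene Gata3 (48, 55, 135 and 139). In all 4 of these genes the groups were apart. The summed level of these markers was 7329 to 8583 in the Prox1 libraries and 14716 to 15447 in the GFP libraries. Their part in the differences of the imprinted genes was not tested. Of the markers of other cell types, 2 of 6 glial, 1 of 6 mesenchymal, 0 of 5 immune and 2 of 5 liver genes had enough counts for limma. None of these passed, with 1 glial and 1 liver gene at an unadjusted p under 0.05. Among others, Sox10, Gfap, Col3a1, Twist2, Ptprc, Cd3e, Adgre1 and Ttr were at 0 in every library. The summed levels in the Prox1 and GFP libraries were 44 to 79 and 17 to 41 for glial markers, 5 to 39 and 4 to 14 for mesenchymal, 1 to 2 and 0 to 5 for immune, and 21 to 88 and 9 to 28 for liver markers. A few genes of a list of 50 common cancer panel genes, written after the values had been seen, stood far apart in 1 GFP library. Met was at 0, 0, 10 and 14834 in Prox1 libraries 1 and 2 and GFP libraries 1 and 2. Abl1 was at 77, 71, 22765 and 557 in the same order. Gnas is the only imprinted gene described here that is on that panel.

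Of the imprinted genes, 6 passed the test, and 3 of them, Magel2, Meg3 and Rian, differed by over 5-fold. Magel2, a paternally expressed gene of the Prader-Willi region, was 12.7-fold higher with Prox1 in mean normalised count, and its neighbour Mkrn3 was 1.83-fold higher. Meg3 and Rian, maternally expressed noncoding RNAs of the Dlk1-Dio3 region, were lower, by 5.5-fold and 5.78-fold. Commd1 and Mcts2, in clusters on other chromosomes, were higher by 1.86-fold and 1.85-fold. The other 17 imprinted genes with enough counts for the test did not pass it. The remaining 23 were too low to test, with no library above 10 normalised counts.

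**Figure D1:**
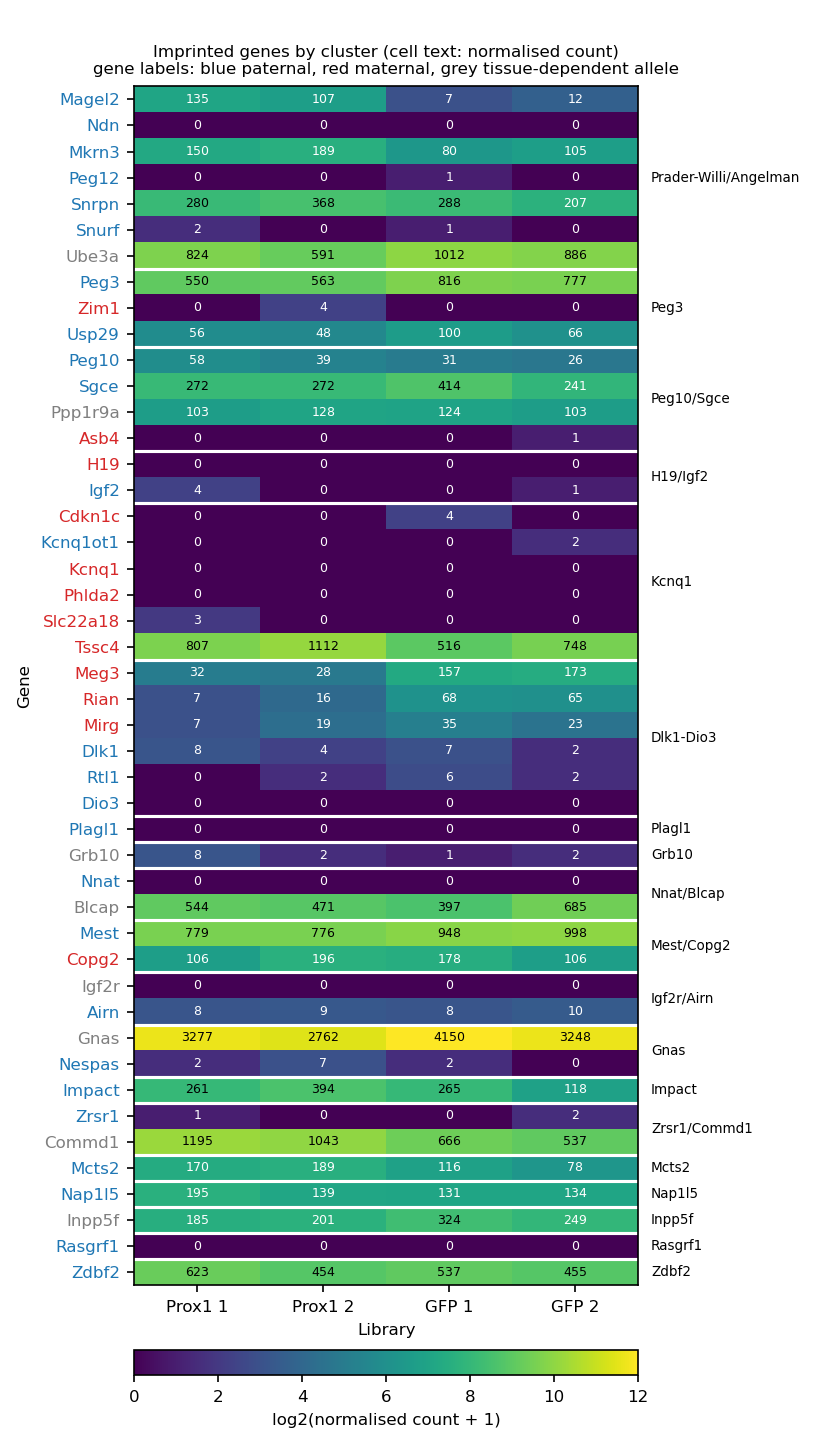
Normalised counts of the 46 imprinted genes (rows, grouped by cluster) in the 4 libraries (columns). Colour gives log2(normalised count + 1), the number in each cell is the normalised count, and gene names are blue for paternal, red for maternal and grey for tissue-dependent expression. Magel2 reads 135 and 107 against 7 and 12, Meg3 reads 32 and 28 against 157 and 173, and whole clusters such as H19/Igf2 and Plagl1 are at or near 0.

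The test was limma on log2(normalised count + 1) over all 13290 genes that averaged 10 normalised counts or more, with Benjamini-Hochberg adjustment over all of them and a threshold of 0.05. A normalised count is the authors' read count scaled between libraries, with no division by gene length, so levels are not compared between genes. Of the 46 imprinted genes, 23 reached the mean of 10 and were tested, and they lay in 14 of the 19 clusters. The test called 6 of these 23 (26.09%), against 16% of all genes tested. Of the 6, 4 were higher in Prox1 cells, where the background was 7.57%, and 2 were lower, where it was 8.41%. The libraries of the groups did not overlap for 15 of the 23 (65.22%), against 58.8% of all genes tested. The median difference of the 23 was 0.02, ranging from -2.53 to 3.57, beside a median of -0.0017 over all genes tested. Both medians lay near 0, and the share without overlap was near the background. With any 1 library left out, the median difference of the 23 lay between -0.13 and 0.17. Calls in those fits are given further below, beside those over all genes. With all libraries, 11 of the 23 had an unadjusted limma p under 0.05. Over all genes tested with all libraries, 4216 of 13290 had an unadjusted limma p under 0.05. Without limma's mean-variance trend 3 imprinted genes passed, Magel2, Meg3 and Rian, beside 1057 of all 13290 genes. With no filter on low values 0 imprinted genes passed, beside 0 of all 24187 genes. These counts cover the members that passed the filter on low values. Magel2 passed it through the Prox1 libraries, since its mean of 9.5 in GFP cells was under 10.

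By expressed allele, 26 of the genes are paternally expressed in most tissues, and 12 of those were tested. Of these 12, 3 rose, 0 fell and the median difference was 0.35. Of the 12 maternally expressed genes, 5 were tested, 0 rose and 2 fell, with a median difference of -1.22. Over all genes tested 7.57% rose and 8.41% fell, and counts this small are a description only. Both that fell are in the Dlk1-Dio3 region, as is Mirg, so allele and locus cannot be told apart here. Of 8 genes whose expressed allele depends on the tissue, 6 were tested and 1 rose, with a median difference of -0.17. Whether the paternal and maternal genes differ was not tested.

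**Figure D2:**
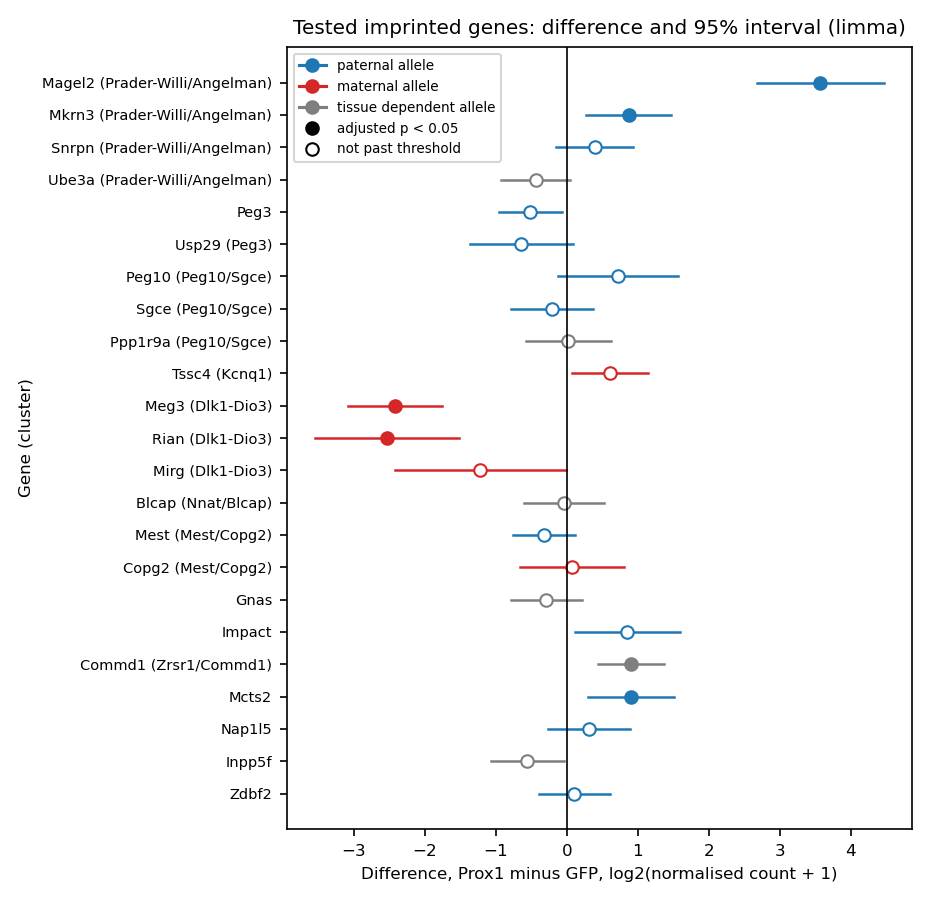
Difference between Prox1 and GFP cells for the 23 imprinted genes tested, on the log2(normalised count + 1) scale (points), with 95% intervals from limma (lines), coloured by expressed allele. Filled points passed an adjusted p of 0.05. Magel2 is at 3.57, Meg3 and Rian at -2.42 and -2.53, and most other intervals span 0.

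The Prader-Willi/Angelman region on chromosome 7 holds paternally expressed genes whose loss causes Prader-Willi syndrome in humans, and Ube3a, whose maternal copy is lost in Angelman syndrome. Magel2 (chr7:62377010-62381640, plus strand, mm10) encodes a MAGE protein that regulates ubiquitin ligases in endosomal transport. Prox1 libraries held 135 and 107 normalised counts of it, and GFP libraries held 7 and 12. Both Prox1 values were several times both GFP values, and the groups were far apart. The means were 121 ± 19.8 and 9.5 ± 3.54 (SD, n = 2 each). On the log2(normalised count + 1) scale Magel2 rose by 3.57 ± 0.41 (SE; limma adjusted p 0.00025). In these libraries 3 reads corresponded to between 2.40 and 3.62 normalised counts, so the GFP values of Magel2 rested on few reads.

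Mkrn3 (chr7:62417593-62420139, minus strand), which encodes a ring finger ubiquitin ligase whose human form restrains the start of puberty, lies next to Magel2. Its values were 150 and 189 in Prox1 cells and 80 and 105 in GFP cells. The groups did not overlap, and the gap between the lowest Prox1 and the highest GFP library was only somewhat wider than the gaps between replicates. The means were 169.5 ± 27.6 and 92.5 ± 17.7 (SD, n = 2 each), a difference of 0.87 ± 0.28 (SE). The limma adjusted p of 0.0498 was just under the threshold, and it was 0.0512 with a pseudocount of 0.5.

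Of the other genes of the region, 2 were tested and did not pass, and 3 were too low to test. Ndn, the necdin gene between Ube3a and Magel2 that restrains neuronal growth, was at 0 in all 4 libraries. Peg12 was at 0, 0, 1 and 0, in the order Prox1 libraries 1 and 2 and GFP libraries 1 and 2, which is used for every list of 4 values from here on. Snrpn (chr7:59982495-60140219, minus strand), the spliceosome protein gene whose promoter lies at the imprinting centre of the region, read 280, 368, 288 and 207. The groups overlapped, and the difference was 0.39 with a 95% interval from -0.15 to 0.94. Snurf, which shares its transcript with Snrpn, was listed at 2, 0, 1 and 0. Gm38393, an annotation that overlaps Snrpn on the same strand, read 289, 372, 295 and 214, nearly the values of Snrpn, and reads that fall in both annotations cannot be told apart. Snhg14, the long noncoding transcript that continues from Snrpn towards Ube3a on the opposite strand from Ube3a, read 140, 151, 209 and 156, a difference of -0.31 that did not pass the test. Ube3a (chr7:59228750-59311536, plus strand), the ubiquitin ligase expressed from the maternal copy in neurons and from both copies elsewhere, read 824, 591, 1012 and 886. Both Prox1 values were below both GFP values, yet the difference of -0.44 (95% interval -0.93 to 0.05) did not pass.

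The sequence before the Magel2 start is shown with that of Mkrn3 because these neighbours were both higher in Prox1 cells. The 250 bases end at the base before the RefSeq start (GRCm38.p6), at chr7:62376729-62376978 on the plus strand for Magel2 and at chr7:62420154-62420403 on the minus strand for Mkrn3. Capitals mark a match to 1 of 3 motifs searched on both strands: TGCCGC, the hexamer bound by ZFP57 when methylated, TGACGTCA, the cAMP response element, and GCCATNTT, a YY1 motif.
Magel2 promoter: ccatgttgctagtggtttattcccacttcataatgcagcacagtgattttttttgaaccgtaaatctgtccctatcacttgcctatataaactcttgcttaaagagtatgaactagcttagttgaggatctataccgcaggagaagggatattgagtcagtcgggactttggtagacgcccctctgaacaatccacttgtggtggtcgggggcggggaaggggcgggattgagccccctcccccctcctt
Mkrn3 promoter: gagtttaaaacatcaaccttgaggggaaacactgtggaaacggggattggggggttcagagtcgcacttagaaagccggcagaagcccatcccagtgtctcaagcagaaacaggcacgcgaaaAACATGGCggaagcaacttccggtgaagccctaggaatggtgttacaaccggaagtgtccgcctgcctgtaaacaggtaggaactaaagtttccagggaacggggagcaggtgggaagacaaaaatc
The Magel2 stretch held no match to the 3 motifs. The Mkrn3 stretch held 1 match to the YY1 motif, which begins 127 bases before the start and reads on the opposite strand. A match describes letters only, and no binding was measured here.

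The Dlk1-Dio3 region on chromosome 12 carries Dlk1, Rtl1 and Dio3 on the paternal copy and a long chain of noncoding RNAs on the maternal copy. In the order of transcription these are Meg3, Rian, which hosts small nucleolar RNAs, and Mirg, which hosts microRNAs. Meg3 (chr12:109541001-109571726, plus strand), known as a noncoding RNA that restrains growth and is often silenced in tumours, read 32, 28, 157 and 173 normalised counts. All Prox1 values were far below all GFP values, and replicates were close. The means were 30 ± 2.83 with Prox1 and 165 ± 11.3 with GFP (SD, n = 2 each). Meg3 fell by 2.42 ± 0.31 (SE) on the log2 scale (limma adjusted p 0.000427).

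Rian (chr12:109603940-109661716, plus strand) read 7, 16, 68 and 65. The Prox1 libraries differed from each other more than the GFP libraries did, and the groups stayed apart. The means were 11.5 ± 6.36 and 66.5 ± 2.12 (SD, n = 2 each), a difference of -2.53 ± 0.47 (SE) with a limma adjusted p of 0.0037. Mirg (chr12:109729764-109749460, plus strand) read 7, 19, 35 and 23, so its groups did not overlap either, but the second Prox1 library came close to the second GFP library. Its difference of -1.22 ± 0.56 (SE) had a 95% interval from -2.43 to -0.0079 and a limma adjusted p of 0.155, which did not pass. Summed over Meg3, Rian and Mirg, the libraries held 46, 63, 260 and 261 normalised counts.

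The paternal genes of the region gave no test. Dlk1, a transmembrane ligand related to Delta that is high in many neuroendocrine tumours, read 8, 4, 7 and 2. Rtl1, a retrotransposon-derived gene that acts in the placenta, read 0, 2, 6 and 2. Dio3, the deiodinase that inactivates thyroid hormone, was at 0 in all 4 libraries. These values were under the mean of 10 needed for the test and allow no comparison.

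Between the Meg3 start and the Mirg end, RefSeq (GRCm38.p6) places 57 microRNA hairpins with 112 mature sequences. The deposited table lists 66 microRNA genes there, 3 of them above 0 in any library and 1 of them tested. That 1 was Mir673 (chr12:109571990-109572080, plus strand), which lies 264 bases past the annotated Meg3 end. It read 23, 25, 124 and 122, with replicates nearly equal and the groups far apart. The means were 24 ± 1.41 and 123 ± 1.41 (SD, n = 2 each), 5.13-fold lower in Prox1 cells, and the difference of -2.31 ± 0.33 (SE) had a limma adjusted p of 0.000863.  The kit reads the ends of polyadenylated RNA, so a count at a microRNA gene is not a level of the mature microRNA. Mir377, inside Mirg, read 2, 1, 4 and 0, and Mir431, between Meg3 and Rian, read 0, 0, 0 and 1.

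The mature microRNAs of these detected genes are shown to identify them, with 2 widely studied ones from the same chain, miR-127-3p and miR-154-5p. Capitals mark the seed, bases 2 to 8, which pairs with target messenger RNAs.
mmu-miR-673-5p: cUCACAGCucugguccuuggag
mmu-miR-673-3p: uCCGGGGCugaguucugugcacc
mmu-miR-377-5p: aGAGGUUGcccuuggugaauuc
mmu-miR-377-3p: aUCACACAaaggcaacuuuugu
mmu-miR-431-5p: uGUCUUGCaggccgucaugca
mmu-miR-431-3p: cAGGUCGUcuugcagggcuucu
mmu-miR-127-3p: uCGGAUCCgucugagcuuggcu
mmu-miR-154-5p: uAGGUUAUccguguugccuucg
These seeds all differ from each other. Over the 112 mature sequences there were 102 distinct seeds, and 10 seeds were shared by 2 sequences each, such as miR-379-3p with miR-411-3p and miR-410-5p with miR-494-5p.

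The promoter of Meg3 is shown because Meg3, Mir673 and Rian were lower together and the chain is read from this end. The 250 bases before the RefSeq start are chr12:109540746-109540995 on the plus strand (GRCm38.p6), with capitals as for the promoters above.
Meg3 promoter: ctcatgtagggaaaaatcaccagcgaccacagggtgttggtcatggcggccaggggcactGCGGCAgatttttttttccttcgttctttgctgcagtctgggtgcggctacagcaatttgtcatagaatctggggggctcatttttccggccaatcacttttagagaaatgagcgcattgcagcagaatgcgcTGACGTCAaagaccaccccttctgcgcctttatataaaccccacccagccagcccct
This stretch held 1 match to TGCCGC on the opposite strand, which begins 190 bases before the start, and 1 match to the cAMP response element TGACGTCA, which begins 57 bases before it.

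**Figure D3:**
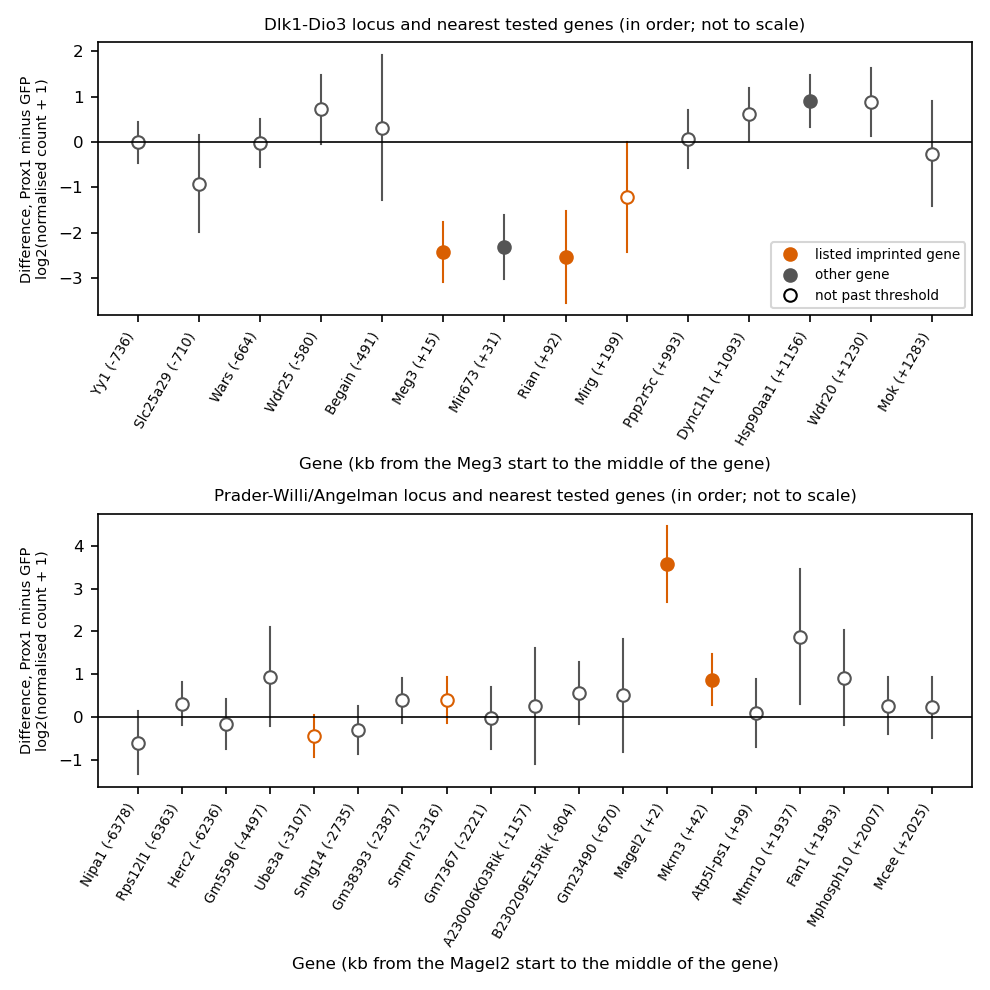
Difference between Prox1 and GFP cells on the log2(normalised count + 1) scale with 95% intervals from limma, for the tested genes of the Dlk1-Dio3 region (top) and the Prader-Willi/Angelman region (bottom) and up to 5 of the nearest tested genes on each side. Genes stand in chromosomal order, with the distance in kb in brackets, and are evenly spaced; orange marks the imprinted genes described here and filled points passed the test. In the top panel Meg3, Mir673 and Rian lie below -2 and the flanking genes within 1 of 0; in the bottom panel Magel2 stands at 3.57 with Mkrn3 beside it.

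The nearest tested genes were read in the same fit. Around the Dlk1-Dio3 region 11 tested genes were taken, those inside it and the 5 nearest on each side, and 2 of them passed the test, Mir673 and Hsp90aa1. Hsp90aa1, a heat shock chaperone gene 409.5 kb beyond the region, read 11059, 7177, 4639 and 4844 and rose by 0.91 ± 0.27 (SE), with a limma adjusted p of 0.0353. The nearest tested gene on the Dlk1 side, Begain, read 5, 27, 11 and 8, and the nearest on the Dio3 side, Ppp2r5c, read 111, 79, 87 and 92; their groups overlapped. Around the Prader-Willi/Angelman region 0 of 16 neighbours passed limma's adjusted threshold, and 1 had an unadjusted p under 0.05. The latter was Mtmr10, a myotubularin-related gene 1823 kb beyond the region, which read 12, 24, 2 and 7 without overlap and differed by 1.88 (95% interval 0.30 to 3.46; limma adjusted p 0.097). Mtmr10 passed the filter on low values through the Prox1 libraries, since its mean in GFP cells was 4.5. Fan1, a DNA repair nuclease gene beside Mtmr10, read 24, 21, 13 and 10, also without overlap, as in 58.8% of all genes tested. The nearest tested annotation on that side, the pseudogene Atp5l-ps1, read 101, 50, 60 and 74, with overlapping groups. These 3 were picked after their values had been seen. Over the neighbours of all 19 clusters, 27 of 194 (13.92%) passed, close to the 16% of all genes tested. Of those that passed, 13 were higher and 14 lower, and the median difference of the 194 was 0.04. The neighbours are not free of imprinted genes, since Zfp264, Cd81 and Osbpl5, among others, also stand in the further list of imprinted genes below.

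Several imprinted genes are retrogenes, copied from messenger RNA into an intron of a host gene. Mcts2 (chr2:152687035-152687951, plus strand), a copy of the translation factor gene Mcts1, lies inside H13 on the same strand and in an intron of 3 of its 6 annotated transcripts. It read 170, 189, 116 and 78, and both Prox1 values were above both GFP values. The means were 179.5 ± 13.4 and 97 ± 26.9 (SD, n = 2 each), a difference of 0.91 ± 0.28 (SE) with a limma adjusted p of 0.0443. H13, the host gene and a signal peptide peptidase, read 604, 715, 831 and 903. Its Prox1 values lay below its GFP values, the opposite order to Mcts2, but the difference of -0.40 did not pass the test.

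Commd1 (chr11:22896136-22982382, minus strand), a copper homeostasis and endosomal sorting gene, is the host of the retrogene Zrsr1, which lies inside it on the opposite strand. Commd1 read 1195, 1043, 666 and 537, with no overlap between groups. The means were 1119 ± 107 and 601.5 ± 91.2 (SD, n = 2 each), a difference of 0.90 ± 0.22 (SE) with a limma adjusted p of 0.014. Zrsr1, a splicing factor retrogene, was listed at 1, 0, 0 and 2. Where genes overlap, the use of strand in the authors' counting decides which gene takes the reads, and it is not given in the sources used here.

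Nap1l5, a nucleosome assembly protein retrogene inside Herc3, read 195, 139, 131 and 134. Its lowest Prox1 value was only just above the GFP values, and the difference was 0.31 (95% interval -0.26 to 0.89). Herc3 read 62, 42, 65 and 62. Nnat, the neuronatin gene inside Blcap on the opposite strand, was at 0 in every library, and Blcap, which encodes an apoptosis-related protein, read 544, 471, 397 and 685 with the highest and the lowest value both in GFP cells.

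**Figure D4:**
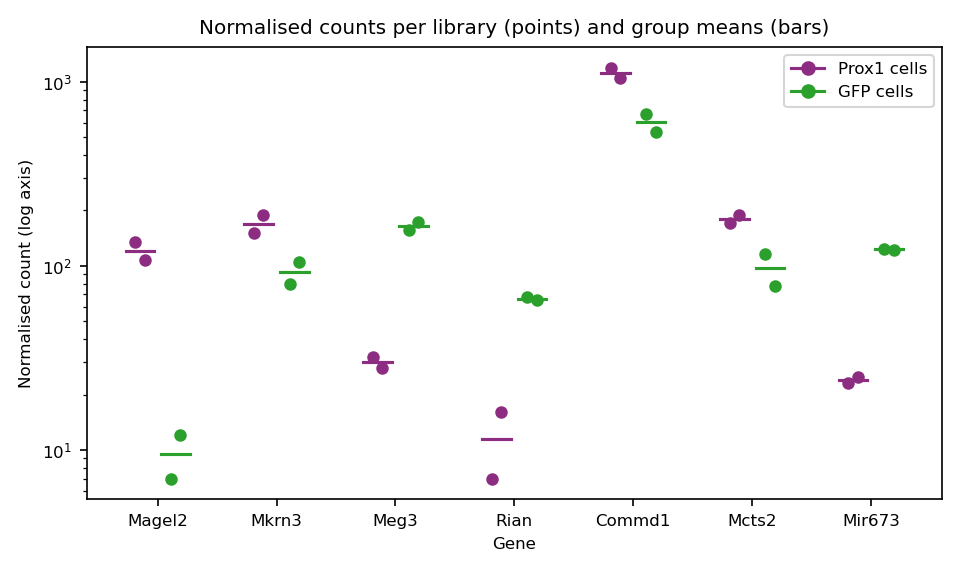
Normalised counts (log axis) of the 6 imprinted genes that passed the test and of Mir673, 1 point per library and a bar at each group mean (n = 2). In each gene both points of 1 group lie above both points of the other; Mkrn3, Mcts2 and Commd1 differ by less than 2-fold, Magel2, Meg3, Rian and Mir673 by more than 5-fold.

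The Peg3 cluster, also on chromosome 7, holds the paternally expressed zinc finger gene Peg3 (chr7:6703892-6730431, minus strand), known for maternal behaviour and growth phenotypes in mice. Peg3 read 550, 563, 816 and 777 normalised counts. Replicates were close and the groups did not overlap, but the difference of -0.52 ± 0.20 (SE; 95% interval -0.96 to -0.07) had a limma adjusted p of 0.102. Usp29, a deubiquitinase gene read from the same promoter region in the other direction, gave 56, 48, 100 and 66 and a difference of -0.64 (95% interval -1.36 to 0.08). Zim1, the maternally expressed zinc finger gene of the cluster, read 0, 4, 0 and 0.

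The Peg10/Sgce cluster on chromosome 6 gave 3 tested genes and 0 limma calls, with 0 also at an unadjusted p under 0.05. Peg10, a retrotransposon-derived gene needed in the placenta, read 58, 39, 31 and 26, a difference of 0.72 (95% interval -0.12 to 1.57). Sgce, the epsilon-sarcoglycan gene mutated in human myoclonus dystonia, shares a promoter region with Peg10 and read 272, 272, 414 and 241. The order of its groups depended on GFP library 1, and the difference was -0.22 with that library and 0.17 without it. Ppp1r9a, which encodes the actin-binding protein neurabin, read 103, 128, 124 and 103, with overlapping groups. Asb4 read 0, 0, 0 and 1.

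The growth cluster of distal chromosome 7 was nearly silent. H19, a maternally expressed noncoding RNA, was at 0 in all libraries, and Igf2, the growth factor gene that competes with it for enhancers, read 4, 0, 0 and 1. In the adjoining Kcnq1 cluster, Kcnq1 and Phlda2 were at 0, and Cdkn1c, a cyclin-dependent kinase inhibitor gene, read 0, 0, 4 and 0. The silencing RNA Kcnq1ot1 read 0, 0, 0 and 2, and the transporter gene Slc22a18 read 3, 0, 0 and 0. Tssc4, at the edge of this cluster and a factor in spliceosome assembly, was well detected at 807, 1112, 516 and 748. Its lowest Prox1 value lay just above its highest GFP value, and the difference of 0.61 ± 0.25 (SE) had a limma adjusted p of 0.109.

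In the remaining clusters no gene passed the test. Mest, a paternally expressed growth gene, read 779, 776, 948 and 998, a difference of -0.32 (95% interval -0.76 to 0.12) with no overlap between groups. Copg2, a coatomer subunit gene beside Mest, read 106, 196, 178 and 106, and each group held 1 of the low libraries. Gnas, which encodes the stimulatory G protein alpha subunit, read 3277, 2762, 4150 and 3248 and had overlapping groups. Nespas, the antisense RNA of that locus, read 2, 7, 2 and 0.

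Impact, a paternally expressed inhibitor of the amino acid sensor GCN2, read 261, 394, 265 and 118. The lowest value was in GFP library 2, and Prox1 library 1 lay just below GFP library 1. It differed by 0.85 ± 0.34 (SE; limma adjusted p 0.106). Inpp5f, a phosphoinositide phosphatase gene with a paternally expressed brain form, read 185, 201, 324 and 249 and gave a difference of -0.56 (95% interval -1.07 to -0.04; limma adjusted p 0.131). Zdbf2, a zinc finger gene that promotes growth after birth in mice, read 623, 454, 537 and 455, with overlapping groups.

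Grb10, which encodes an adaptor that damps insulin signalling, read 8, 2, 1 and 2. Airn, the silencing RNA that overlaps Igf2r on the opposite strand, read 8, 9, 8 and 10. Igf2r, Plagl1 and Rasgrf1 were at 0 in all 4 libraries. In all, 9 of the 46 genes were at 0 everywhere, and the other 14 untested genes never exceeded 10 normalised counts in a library. A value of 0 allows a level of up to 3 reads, which is 2.40 to 3.62 normalised counts depending on the library. RNA of mixed cells cannot tell fewer expressing cells from less RNA per cell, so whether Magel2 or Meg3 differed in every cell is not known.

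The authors' deposited table gives its own DESeq p-value for 23 of the imprinted genes. Of these, 3 passed an adjusted p of 0.05, against 4.62% of the 11933 genes with such a value. They were Magel2 (adjusted p 4.93e-06 in the authors' deposited table), Meg3 (0.000272) and Rian (0.0158). Mkrn3 (0.381), Commd1 (0.198) and Mcts2 (0.281), which passed limma's threshold here, did not pass in the authors' deposited table.

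The promoters of the imprinted genes were rich in CpG, the dinucleotide that carries imprinting marks. The RefSeq windows used were 55 of 300 bases, from 250 bases before to 50 after the start, for 38 of the genes. Windows on chromosome 18, which holds Impact, were left out of the imprinted set but kept among all windows. Their median was 15 CpG, against 7 over 32851 windows of 27025 genes. The ZFP57 hexamer TGCCGC was in 27.3% of the imprinted windows and 11.6% of all windows. TGACGTCA was in 7.27% and 1.79%, which are 4 windows, those of Peg3, Usp29, Meg3 and Zdbf2. The Peg3 and Usp29 windows overlap and share 1 match. GCCATNTT was in 3.64% and 6.05%. TGCCGC and TGACGTCA each contain a CpG, and GCCATNTT does not. The median GC content was 57.3% in the imprinted windows and 52.7% in all windows. The sets were not matched for base composition, so a higher share of a motif cannot be told apart from a higher CpG content. Snrpn and Snurf share an identical window, and with each window counted once TGCCGC was in 25.9% of 54 imprinted windows and 11.6% of 32817. Other windows of neighbouring start sites overlap in part, and no test was made. Among the 6 genes that passed limma, the Magel2 window held 10 CpG, Mkrn3 held 15, Meg3 held 13 at its first start, Mcts2 held 25, Rian held 0 and Commd1 held 17 and 18 at its 2 starts.

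Of 24 genes for factors that set, keep or remove imprinting marks, 19 had enough counts for the test. Of the 19, 3 passed limma's threshold (15.79%, against the background of 16%), 1 higher and 2 lower. Ehmt1, a histone H3 lysine methyltransferase gene, read 1342, 1758, 957 and 461 and was higher by 1.21 ± 0.30 (SE; limma adjusted p 0.0167). Hells, a chromatin remodeller gene needed for DNA methylation, read 838, 751, 1528 and 1665 and fell by 1.01 ± 0.21 (SE; limma adjusted p 0.00643). Tet2, a methylcytosine dioxygenase gene, read 117, 114, 241 and 225, a difference of -1.01 ± 0.24 (SE; limma adjusted p 0.0149). Hells and Tet2 had close replicates and groups that did not overlap.

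Of the genes best known for holding imprints, those that were tested did not pass, 2 of them narrowly. Dnmt1, the maintenance DNA methyltransferase, read 1179, 1066, 1135 and 1280. Trim28, the corepressor recruited by ZFP57, read 1386, 1634, 2460 and 2275, with both Prox1 values below both GFP values. Its difference of -0.65 had a limma adjusted p of 0.0543, just over the threshold. Ctcf, the insulator protein gene, read 720, 982, 551 and 497, with both Prox1 values above both GFP values. Its difference of 0.68 had a limma adjusted p of 0.0549, also just over the threshold. Zfp57 itself was low, at 2, 2, 10 and 13, and was not tested. These 4 were picked after their values had been seen, and no methylation was measured.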

How the data were processed

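Total RNA of doxycycline-treated Neuro2A lines was made into 3′ messenger RNA libraries and sequenced on an Ion Proton, per the labels' protocols. The deposited table gives log2 of a normalised count plus 1 for each gene and library, together with a p-value, an adjusted p and a log2 fold change from the authors' own DESeq comparison, per the file headers. Per the submitters' processing notes, the authors ran DESeq on mm10 data. Aligner, counter, strand setting and annotation release: not given in the sources used here. After reversal of the log2, 100% of values were whole (within a relative 1e-06), so the authors had rounded after scaling, and no count model was run.

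Prox1 and GFP were compared on log2(normalised count + 1) by limma 3.58.1 in R 4.3.3 (mean-variance trend), two-sided, on genes averaging 10 or more; Benjamini-Hochberg adjusted p-values under 0.05 were called. The procedure was tested on simulated data. Estimated depth was 5910000 to 9610000 reads per library; 3 reads equal 2.40 to 3.62 normalised counts, which covers counting error only. Counting error alone does not account for the spread within a group (chi-square over its degrees of freedom 19.2 in Prox1, 20.4 in GFP), so replicates were kept as separate libraries. The deviations of Prox1 replicate 1 and GFP replicate 1 from their group means had a correlation of r = -0.051. With 2 libraries a group, replicate 2 deviates exactly opposite to replicate 1. The single r does not settle whether equal replicate numbers mark a shared batch.

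The imprinted genes, their clusters and the further lists were chosen with earlier results of these data known. Values were given for every imprinted gene, and for each further list and the neighbours for up to 3 called genes with the strongest rise and 3 with the strongest fall, provided that their higher group averaged 50 or more. Alternatives were TMM and cyclic loess scaling, no filter, a minimum mean of 50, pseudocounts of 5 or 0.5, a replicate block, no variance trend, each library left out, and, added after seeing the data, the fit without 50 panel genes. Table coordinates are mm10 and equal those of GENCODE M21 for 91.5% of the gene IDs found there and for 40 of the 46 imprinted genes; sequences are from RefSeq GRCm38.p6. Overlapping and antisense genes are uncertain in these counts. Some genes that this rule or the figures would show are not reported here.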

Additional observations from a re-analysis of the deposited data

How the results depend on the processing

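Of the 6 imprinted genes called, 6 were called under TMM, under cyclic loess, with a pseudocount of 5 and without the 50 panel genes, and 5 with a mean of at least 50 or a pseudocount of 0.5. With the replicate number as a block the count was 7, and Impact passed (adjusted p 0.0135); the block changed no other call. Without a variance trend 3 imprinted genes passed (1 higher), and 1057 of all genes (533 higher, 524 lower) against 2124 (1006 and 1118). A mean of at least 50 left 1 lower imprinted gene, because Rian was no longer tested. Without a filter, 0 passed limma's adjusted threshold, with 5032 of all genes and 9 imprinted genes at an unadjusted p under 0.05; the cause was not tested. Leaving out any 1 library gave a range of 0 to 0 calls, higher and lower, for all genes and imprinted genes; unadjusted, 2392 to 3021 of all genes and 5 to 9 imprinted genes were under 0.05. In those fits the lone library is assumed to vary like the other group. The 6 called genes kept their direction under every alternative in which they were tested. In the fits without 1 library this was fixed in advance, because the groups did not overlap in any of the 6. Without 1 library Magel2 ranged from 3.22 to 3.92, Meg3 from -2.52 to -2.33, Rian from -3.08 to -1.99, Mkrn3 from 0.68 to 1.06, Commd1 from 0.74 to 1.05 and Mcts2 from 0.62 to 1.19. Uncalled genes that changed sign in these fits ranged from -0.60 to 0.17 (Sgce), -0.13 to 0.18 (Ppp1r9a), -0.44 to 0.35 (Blcap), -0.37 to 0.51 (Copg2) and -0.12 to 0.33 (Zdbf2). With 2 libraries a group, the interval of a low gene is wide, as for Mirg (-2.43 to -0.0079).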

Other observations

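Imprinted genes outside the 46 were read from a further list. The deposited data list 27 of them, of which 11 were tested; 4 passed with limma (36.36%, against 16% of all genes tested), 1 rising (background 7.57%) and 3 falling (background 8.41%) in Prox1 cells, with a median difference of -0.40. Zfp264, beside the Peg3 cluster, read 109, 145, 43 and 50 normalised counts in Prox1 libraries 1 and 2 and GFP libraries 1 and 2. It was 2.73-fold higher, a difference of 1.42 ± 0.31 (SE; limma adjusted p 0.0088), where Peg3 and Usp29 had differences of the other sign that did not pass. Osbpl5, a lipid transfer protein gene beyond the Kcnq1 cluster, read 101, 97, 451 and 266 and was 3.62-fold lower (limma adjusted p 0.00148). Cd81, a tetraspanin gene of the same chromosomal stretch, read 240, 292, 703 and 639 and was 2.52-fold lower (limma adjusted p 0.00198). Peg13, a paternally expressed noncoding RNA within Trappc9, read 169, 229, 308 and 381 and was 1.73-fold lower (limma adjusted p 0.0442). Trappc9 itself read 82, 100, 140 and 180 and did not pass. In all 4 called genes the groups did not overlap, as in 58.8% of all genes tested.

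Among the called genes nearest the imprinted clusters that averaged at least 50 normalised counts in their higher group, those that rose most were Park2, Zfp264 and Vps50, and those that fell most were Cox4i2, Src and Mir673. Below that level Gm17748, near the Igf2r/Airn cluster, read 39, 49, 8 and 6 and rose by 2.49 (limma adjusted p 0.00545). Gm17748 passed the filter on low values through the Prox1 libraries. Park2, the parkin ubiquitin ligase gene 619 kb from the Igf2r/Airn cluster, read 133, 79, 45 and 30. Vps50, a vesicle trafficking gene near the Peg10/Sgce cluster, read 1843, 1402, 607 and 651. Cox4i2, a cytochrome c oxidase subunit gene 66.2 kb from Mcts2, read 4, 4, 51 and 85 and passed that filter through the GFP libraries. Src, a tyrosine kinase gene 84.5 kb from the Nnat/Blcap cluster, read 13, 24, 80 and 132, while Blcap had overlapping groups. The cancer panel genes Met and Abl1 were also higher in the GFP libraries. Whether Src differed for the same reason was not tested.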
